A study of Mus musculus with 8 samples.

Results

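Hemidesmosomes rivet the basal cells of a stratified epithelium to the basement membrane, and 8 of their genes were followed here across buccal epithelium of germ-free (GF) and specific pathogen-free (SPF) mice. The genes were chosen by symbol: Dst, Plec, Itga6, Itgb4, Col17a1, Cd151, Lama3 and Lamb3, which are 8 of the 22911 genes in the deposited table, each present once. RNA came from epithelial cells of adult C57BL/6 wild-type mice, which were freed from the oral mucosa with dispase II and sorted by flow cytometry. GF mice are raised without microorganisms, while SPF mice live with a microbiota that is kept clear of defined pathogens. There were 4 animals per group with 1 library each (GF 1 to 4, and SPF 1, 3, 4 and 5), and none was treated before the tissue was taken. Gene counts summed to between 10430507 and 15524731 in GF libraries and between 10260264 and 14730960 in SPF libraries. All 8 genes passed the filter on low counts. Neither the hour of tissue collection nor any batch is stated in the labels; if either followed the groups, it cannot be told apart from colonization.

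In a hemidesmosome, the integrin made of the α6 and β4 chains spans the basal membrane of the cell and binds laminin-332 outside it. Inside the cell the plakins plectin (Plec) and BPAG1 (Dst) link that integrin and the transmembrane collagen XVII (Col17a1) to keratin filaments, and the tetraspanin CD151 sits beside the integrin in the membrane. Laminin-332, the adhesive ligand, is a trimer to which Lama3 and Lamb3 contribute the α3 and β3 chains. In people, inherited loss of many of these proteins causes skin and mucosal blistering.

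Promoter sequences are shown for the gene with the largest difference between the groups, Dst, for the most abundant gene per length, Col17a1, and for Cd151, the gene with the smallest difference. Each runs from 250 bases before to 50 bases after an annotated RefSeq start (GRCm38.p6), 5′ to 3′ on the gene's own strand. Capitals mark exact matches on either strand to the GC box GGGCGG or the TATA motif TATAAA, and no match overlapped another. RefSeq gave 2 starts for Dst, of which the upstream one is rich in GC and the downstream one is not.
Dst, upstream start, chr1:34011345-34011644, plus strand: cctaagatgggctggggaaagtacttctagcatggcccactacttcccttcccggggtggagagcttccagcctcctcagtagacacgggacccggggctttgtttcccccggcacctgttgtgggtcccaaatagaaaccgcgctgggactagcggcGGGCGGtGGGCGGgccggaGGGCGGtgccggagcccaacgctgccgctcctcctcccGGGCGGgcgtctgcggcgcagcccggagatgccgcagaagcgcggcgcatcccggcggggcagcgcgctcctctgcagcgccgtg
Dst, downstream start, chr1:34160010-34160309, plus strand: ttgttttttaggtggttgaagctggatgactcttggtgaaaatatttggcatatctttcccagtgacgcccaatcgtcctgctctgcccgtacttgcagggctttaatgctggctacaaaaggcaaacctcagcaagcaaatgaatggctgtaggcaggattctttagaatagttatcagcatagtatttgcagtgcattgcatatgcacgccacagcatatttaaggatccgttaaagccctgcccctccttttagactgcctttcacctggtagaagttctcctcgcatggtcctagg
Col17a1, chr19:47691993-47692292, minus strand: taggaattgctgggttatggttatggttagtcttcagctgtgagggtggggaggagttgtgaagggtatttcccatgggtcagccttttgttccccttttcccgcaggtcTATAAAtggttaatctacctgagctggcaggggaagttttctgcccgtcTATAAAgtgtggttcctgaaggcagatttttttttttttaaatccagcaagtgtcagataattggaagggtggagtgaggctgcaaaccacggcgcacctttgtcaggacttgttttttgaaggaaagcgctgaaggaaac
Cd151, upstream start, chr7:141467112-141467411, plus strand: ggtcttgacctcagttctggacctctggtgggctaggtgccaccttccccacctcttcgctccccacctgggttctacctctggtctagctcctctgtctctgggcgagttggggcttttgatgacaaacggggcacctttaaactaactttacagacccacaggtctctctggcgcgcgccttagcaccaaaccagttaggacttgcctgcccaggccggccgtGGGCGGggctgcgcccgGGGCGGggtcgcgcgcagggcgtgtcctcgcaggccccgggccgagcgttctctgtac
The upstream Dst start held 31 CpG dinucleotides, a GC content of 70.3% and 4 GC boxes, whereas the downstream start held 6 CpG, a GC content of 46% and none of these motifs. The Col17a1 window held 2 TATA matches and 5 CpG, and the upstream Cd151 window 2 GC boxes and 20 CpG. A downstream RefSeq start of Cd151, not shown, held 4 CpG and no GC box or TATA match. Among 32544 mouse promoter windows of the same length, 35.9% held a GC box and 13.6% the TATA motif. The E-box CACGTG, present in 7.17% of all windows, and the AP-1 motif TGANTCA, in 7.79%, were in none of these 4 windows. No window is shown for Plec, Itga6, Itgb4, Lama3 or Lamb3.

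The hemidesmosome genes were among the most abundant transcripts of these cells. Per length (TPM, which divides each count by the length of the union of the gene's exons and scales the library to a fixed sum), Col17a1 averaged 2410 ± 160 TPM in GF and 1936 ± 239 TPM in SPF libraries (SD, n = 4 each, here and below). This was above 99.7% of tested genes. Plec followed at 707 ± 128 TPM in GF and 477 ± 88.6 TPM in SPF, then Itgb4 at 588 ± 129 and 476 ± 62.6 TPM. In GF libraries Dst, at 568 ± 67.6 TPM, lay within the range of Itgb4, while in SPF libraries, at 292 ± 34.4 TPM, it lay beside Itga6. Itga6 stood at 357 ± 40.1 TPM in GF and 279.9 ± 42.5 TPM in SPF, and Lamb3 at 206 ± 34.7 and 171 ± 27.8 TPM. The lowest were Lama3, at 125 ± 14.1 TPM in GF and 89.9 ± 5.93 TPM in SPF, and Cd151, at 107 ± 7.20 and 105 ± 6.01 TPM, still above 91.8% of tested genes. These levels depend on the exon union, which is longer than any single transcript: for Dst it is 41155 bp, and its 14 coding transcripts span 776 to 23279 bp. The deposited counts are per gene and do not separate the short epithelial form of BPAG1 from the long neuronal and muscle forms.

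The keratins of oral epithelium were abundant in both groups. Krt5, the basal keratin that pairs with Krt14, was at 11952 ± 1085 CPM (counts scaled to a common library size with edgeR's TMM factors) in GF and 12554 ± 701 CPM in SPF libraries, and Krt13, of the suprabasal oral layers, at 11560 ± 1593 and 11443 ± 2841 CPM (log2 fold changes −0.07 and 0.01, neither called). Together the 8 hemidesmosome genes took 1.72% to 2.00% of all counts in GF libraries and 1.08% to 1.42% in SPF libraries, ranges that did not overlap. Their summed level was 17072 to 20018 CPM in GF and 10667 to 14304 CPM in SPF libraries. Dst made up much of this gap, at 6995 ± 450 CPM in GF and 3762 ± 468 CPM in SPF.

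Dst and Lama3 rose in germ-free epithelium, by 1.86-fold and 1.33-fold, and the other 6 genes were not called. Calls came from the quasi-likelihood test of edgeR, with p-values adjusted by Benjamini-Hochberg over all 15098 tested genes and 0.05 as the limit. The 2 calls of 8, both higher in GF, compare with 4.18% of all tested genes called in either direction, 1.85% higher and 2.33% lower. The log2 fold change (GF minus SPF) was above 0 for 7 of the 8, against 52.9% of all tested genes. That share rose with the exon union: 48.2% at 2000 to 4000 bp, 54.3% at 4000 to 8000 bp, 67.2% at 8000 to 16000 bp and 81.6% from 16000 bp. The median was 0.27 for the 8 and 0.02 for all tested genes. Unadjusted p-values under 0.05 were found for 5 of the 8, against 19.5% of all. The groups did not overlap in CPM for 4 of the 8, against 13.1% of all. In such bulk libraries, more basal cells and more RNA per basal cell cannot be told apart.

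**Figure D1:**
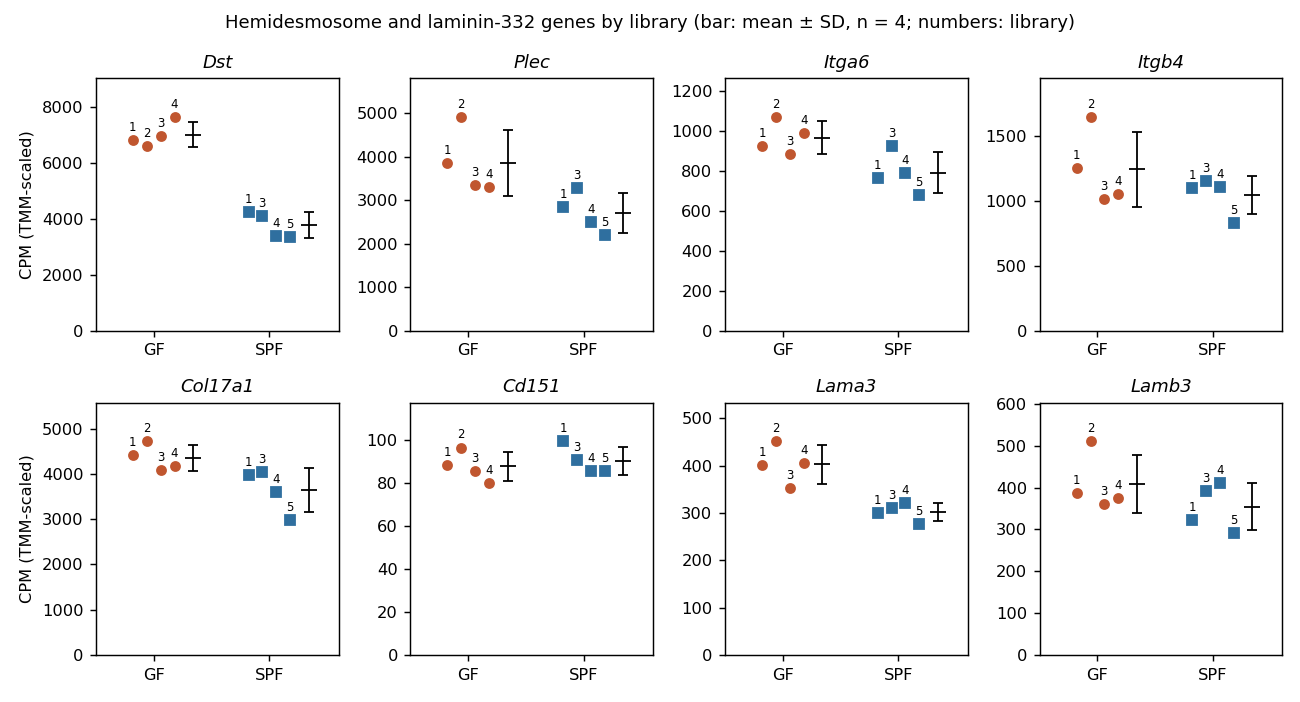
CPM (TMM-scaled, linear axis from 0) of each hemidesmosome and laminin-332 gene in the 4 GF (circles, left) and 4 SPF (squares, right) libraries; small numbers are library numbers and black bars are mean ± SD. The GF libraries lie well above SPF for Dst, overlap them for Itga6, Itgb4, Cd151 and Lamb3, and GF 2 is the highest GF library for 7 of the 8 genes.

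Dst, which encodes a plakin that reaches the keratin filaments, showed the largest difference of the 8 genes. Dst (ENSMUSG00000026131, GRCm38 chromosome 1, 33908225 to 34308661, plus strand) was at 6799.7, 6602, 6940.1 and 7637 CPM in GF libraries 1 to 4, against 4227, 4101, 3382 and 3336 CPM in SPF libraries 1, 3, 4 and 5. The lowest GF library stood far above the highest SPF library. The log2 fold change was 0.89 ± 0.10 (SE; adjusted p = 0.00051 by edgeR), the 16th smallest p of the 15098 genes. The call held without each library in turn, with log2 fold changes of 0.84 to 0.94.

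Plectin, the other linker to keratin, had a smaller difference that edgeR did not call. Plec (ENSMUSG00000022565, chromosome 15, 76170974 to 76232574, minus strand) was at 3858, 4915, 3346 and 3297 CPM in GF libraries, against 2842, 3282, 2501 and 2188 CPM in SPF libraries. The groups were separated only narrowly, by GF 4 and SPF 3, and GF 2 stood above the rest. GF exceeded SPF by 0.51 ± 0.15 on the log2 scale (adjusted p = 0.0776 by edgeR). DESeq2's Wald test called it (adjusted p = 0.0168), and so did the authors' deposited table, at −0.51 for SPF over GF (adjusted p = 0.0234). In those 2 sources 8.36% and 5.21% of genes with an adjusted p were called. The deposited table also called Dst (−0.89, adjusted p = 4.46e-15) and Lama3 (−0.41, adjusted p = 0.00209) for SPF over GF, and none of the other 5. A limma voom fit, which called 6.78% of all tested genes, called Dst and Lama3 and not Plec.

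Neither chain of the integrin passed the test. Itga6 (ENSMUSG00000027111, chromosome 2, 71745616 to 71858416, plus strand) was at 922, 1068, 883 and 986 CPM in GF libraries, against 763, 925, 789 and 678 CPM in SPF libraries. SPF 3 reached into the GF range. The difference on the log2 scale was 0.29 ± 0.10 (adjusted p = 0.135 by edgeR). Its partner Itgb4 (ENSMUSG00000020758, chromosome 11, 115974709 to 116008412, plus strand), whose long cytoplasmic tail holds plectin, was at 1256, 1649, 1018 and 1050.5 CPM in GF libraries, against 1099, 1157, 1105 and 828 CPM in SPF libraries. GF 3 and GF 4 lay inside the SPF range and GF 2 far above it. The log2 fold change of 0.25 ± 0.16 (adjusted p = 0.425 by edgeR) was 0.08 without GF 2 and 0.15 without SPF 5.

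Col17a1, which encodes the collagen of the plaque and an autoantigen of human pemphigoid, was also not called. Col17a1 (ENSMUSG00000025064, chromosome 19, 47646344 to 47692094, minus strand) was at 4420.45, 4726, 4087 and 4174 CPM in GF libraries, against 3969, 4045, 3593 and 2982 CPM in SPF libraries. The groups did not overlap, by a narrow gap between GF 3 and SPF 3. Its log2 fold change was 0.25 ± 0.11 (adjusted p = 0.201 by edgeR), and 0.17 without SPF 5. Cd151 (ENSMUSG00000025510, chromosome 7, 141467392 to 141471473, plus strand) was the only one of the 8 with a log2 fold change below 0. It was at 88.6, 96.6, 85.8 and 80.2 CPM in GF libraries, against 99.5, 90.8, 85.5 and 85.5 CPM in SPF libraries. The groups overlapped almost fully. Its log2 fold change was −0.04 ± 0.09 (adjusted p = 0.855 by edgeR), with an approximate 95% interval from −0.22 to 0.14.

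Of the laminin-332 chains, Lama3 was called and Lamb3 was not. Lama3 (ENSMUSG00000024421, chromosome 18, 12333819 to 12583013, plus strand) was at 402, 451, 352 and 405 CPM in GF libraries, against 299.9, 311, 320.2 and 277 CPM in SPF libraries. All 4 GF libraries stood above all SPF libraries. On the log2 scale the difference was 0.41 ± 0.09 (adjusted p = 0.0224 by edgeR). The call was lost without GF 4 (adjusted p = 0.0668), without SPF 3 (adjusted p = 0.0624) or without SPF 5 (adjusted p = 0.0751), with log2 fold changes of 0.41, 0.43 and 0.37. Lamb3 (ENSMUSG00000026639, chromosome 1, 193207699 to 193343878, plus strand) was at 386, 511, 362 and 376 CPM in GF libraries, against 323, 392, 409.7 and 292 CPM in SPF libraries. Its groups overlapped, and GF 2 stood apart from the other 3 GF libraries. Its log2 fold change was 0.21 ± 0.13 (adjusted p = 0.423 by edgeR), and it was 0.08 without GF 2 and 0.12 without SPF 5.

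**Figure D2:**
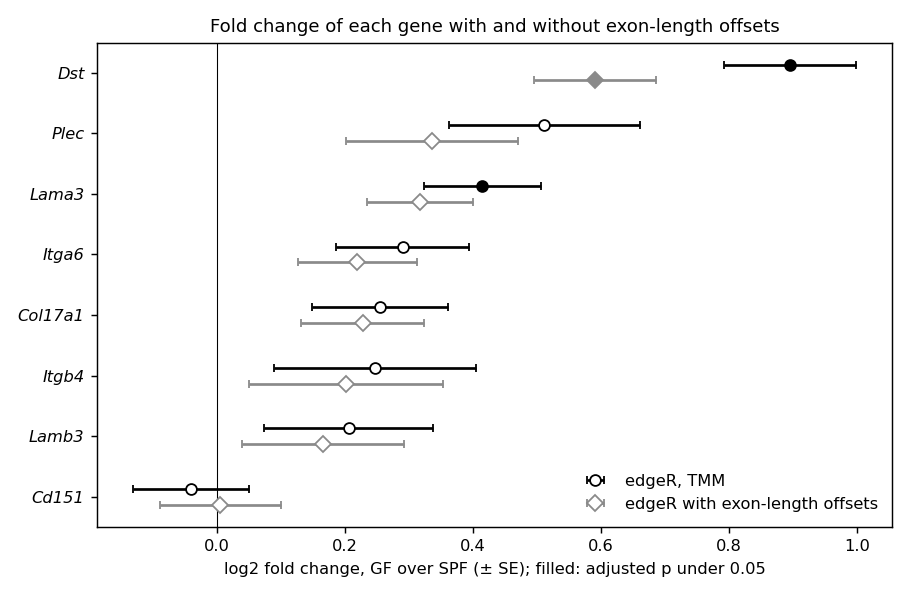
Log2 fold change (GF over SPF, ± SE, horizontal axis) of the 8 genes in the edgeR fit (circles) and with per-library offsets for exon length (diamonds); filled symbols have an adjusted p under 0.05. Dst passes in both fits (0.89 and 0.59), Lama3 only without the offsets, and Cd151 lies at 0 within its error.

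The size of the difference followed the length of the exon union. From the longest exon union to the shortest, the genes were Dst (41155 bp), Plec (18113 bp), Lama3 (10745 bp), Itga6 (9025 bp), Itgb4 (7015 bp), Lamb3 (6612 bp), Col17a1 (6011 bp) and Cd151 (2741 bp). Their log2 fold changes fell in nearly the same order, with a Spearman rho across the 8 genes of 0.93, and of 0.83 when the longest coding transcript was used as length. Genes are not independent replicates, and these share libraries. For Dst neither length is that of the short epithelial form, which the counts do not separate. A weaker trend in the same direction ran through the whole table, with a Spearman rho of 0.15 across 15088 tested genes and of 0.41 across the 2611 with a mean of at least 80 CPM. Genes with an exon union under 1000 bp had a median log2 fold change of −0.08 (n = 926), and those of 16000 bp or more a median of 0.21 (n = 293). Among the latter 22 were called higher and 1 lower. Within this longest class 27 of the 293 genes had a larger log2 fold change than Dst and 50 a larger one than Plec. Among the 2132 genes of 8000 to 16000 bp, 336 exceeded Lama3. These ranks are over tested genes of any level, while all 8 genes had a mean of at least 80 CPM. At that level the medians were −0.14 at 2000 to 4000 bp and −0.03 at 4000 to 8000 bp. They were 0.06 at 8000 to 16000 bp and 0.16 from 16000 bp.

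With per-library offsets that remove the smooth trend of CPM on exon length, Dst was still called, at 0.59 ± 0.10 (adjusted p = 0.00428 by edgeR). Under the same offsets Lama3 was at 0.32 ± 0.08 (adjusted p = 0.0536), Plec at 0.34 ± 0.13 (adjusted p = 0.203) and Cd151 at 0.01 ± 0.09. The offsets themselves differed between GF and SPF libraries by 0.31 on the log2 scale at the length of Dst and by −0.04 at that of Cd151. For Dst the offset rests on the exon union of 41155 bp and not on the short epithelial form. The offsets were chosen after seeing the data, and the cause of the trend was not tested.

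**Figure D3:**
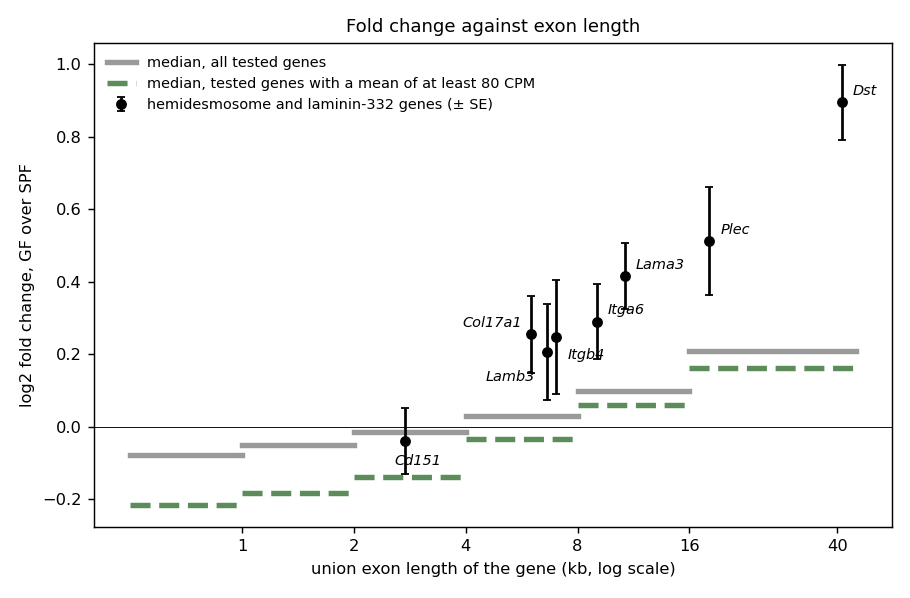
Log2 fold change (GF over SPF) against union exon length (kb, log axis): points are the 8 genes ± SE, and horizontal bars are medians of all tested genes (solid) and of those with a mean of at least 80 CPM (dashed) in 6 length classes, of which the open-ended first and last are drawn to fixed ends. The medians run from −0.08 to 0.21 for all tested genes, and the 8 genes rise along the axis from Cd151 to Dst.

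Set against one another within each library, partner genes gave ratios of which none passed the test between the groups. Of 5 ratios tested by an exact two-sided permutation test over libraries, 0 passed at an adjusted p under 0.05, and 1 had an unadjusted p under 0.05. With 4 libraries a group the smallest p this test can give is 0.0286. A single ratio at that p cannot pass once it is adjusted over the 5. The log2 ratio of Itga6 to Itgb4 averaged −0.34 ± 0.24 in GF and −0.41 ± 0.12 in SPF libraries (exact permutation p = 0.657). Lama3 to Lamb3 averaged −0.01 ± 0.13 in GF and −0.22 ± 0.15 in SPF (exact permutation p = 0.114), and Dst to Plec 0.88 ± 0.34 and 0.48 ± 0.13 (exact permutation p = 0.114). Col17a1 to Itgb4 averaged 1.83 ± 0.23 in GF and 1.80 ± 0.07 in SPF (exact permutation p = 0.886). The ratio of Cd151 to Itga6 did not overlap between the groups, at −3.46 ± 0.12 in GF and −3.12 ± 0.19 in SPF (exact permutation p = 0.0286, the smallest possible; adjusted over the 5, p = 0.143). These ratios keep the trend with exon length: its offsets differed between GF and SPF by −0.04 at the length of Cd151 and 0.07 at that of Itga6.

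Each gene was also set against the basal keratin gene Krt5 within its library. Such a ratio cancels the scaling of the library, but not the trend with exon length where the 2 genes differ in length. The GF minus SPF difference of the length offsets was 0.31 at the length of Dst, 0.17 at that of Plec and 0.10 at that of Lama3. The offset at the length of Krt5, which the ratio takes off, is not given here. The part of the trend in each ratio is therefore not known. The log2 ratio of Dst to Krt5 averaged −0.77 ± 0.12 in GF and −1.75 ± 0.14 in SPF libraries, a difference of 0.97. The ratios of Plec (difference 0.58) and Lama3 (0.49) to Krt5 also did not overlap between the groups. Each of these 3 had the smallest exact permutation p, 0.0286, and an adjusted p of 0.0762 over the 8 ratios, so 0 of 8 passed. Cd151 to Krt5 differed by 0.03 (exact permutation p = 0.943).

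The profiles of most of the 8 genes over the libraries were similar. Over the 28 pairs of genes Pearson's r of log2 CPM across the 8 libraries ran from −0.15 (Dst and Cd151) to 0.94 (Plec and Col17a1), with a median of 0.78. These are descriptions over libraries that share one scaling. The trend with exon length was not removed, and no other pairs of genes were set beside them. After each group was centred on its own mean the median was 0.72, and the highest r was 0.92, for Plec with Itgb4. Itga6 and Itgb4, which encode the chains of 1 integrin, then had r of 0.75, and Cd151 with Itga6 had 0.31. Centred in this way, Dst had r of −0.13 to 0.56 with the other genes, and Cd151 had r of 0.24 to 0.77. GF 2 held the highest level of all 8 libraries for 6 genes and SPF 5 the lowest for 7. The genes outside the set whose log2 CPM followed the mean of its standardised levels most closely over the 8 libraries were Prpf4 (r = 0.986), Fat1 (0.983), Tns1 (0.976), Igf2r (0.976) and Arhgap44 (0.976). Their exon unions were 5671 bp for Prpf4, 15655 bp for Fat1, a giant cadherin, 16010 bp for Tns1, a linker of integrins to actin, 9308 bp for Igf2r and 5819 bp for Arhgap44. As the 5 highest of all other tested genes they had a high r by selection, and none was called by edgeR.

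Other plakins divided. Ppl, which encodes periplakin of the desmosome and cornified envelope, rose to 841 ± 83.4 CPM in GF libraries, against 502 ± 89.1 CPM in SPF libraries (0.74 ± 0.12, adjusted p = 0.00578 by edgeR). Eppk1, which encodes the keratin-binding epiplakin, rose to 814 ± 87.4 CPM in GF, against 389.9 ± 103 CPM in SPF (1.06 ± 0.19, adjusted p = 0.0162 by edgeR). Dsp, the desmosomal plakin, was at 10394 ± 633 CPM in GF and 9845 ± 947 CPM in SPF. The actin and microtubule linker Macf1, with an exon union of 31402 bp against 41155 bp for Dst, was at 711 ± 115 and 751 ± 101 CPM. Neither was called, at 0.08 ± 0.10 and −0.08 ± 0.12, and nor was Evpl, so 2 of 5 rose and 0 fell. The plakin median was 0.08.

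Among integrins, laminins, other basement membrane genes and tetraspanins edgeR called 0 genes. DESeq2 called Lama2, Nid1 and Nid2 higher in GF, and also Itga9, which edgeR's filter on low counts left out and which had 16, 1, 81 and 396 counts in GF 1 to 4, against 0, 9, 4 and 9 counts in SPF libraries. The limma voom fit called Nid2 higher and Itgb6 lower. Among 17 tested integrins and linkers, 8 had an unadjusted p under 0.05 and the median log2 fold change was 0.17. Itgb6, an epithelial integrin chain, was at 11.3 ± 3.43 CPM in GF and 17.4 ± 3.40 CPM in SPF, and Ptk2, the focal adhesion kinase, at 95.7 ± 13.02 and 79.0 ± 2.29 CPM. Itga1, a collagen receptor chain, was at 17.4 ± 4.14 CPM in GF and 10.2 ± 4.23 CPM in SPF. Among 8 other laminin chains, 2 had an unadjusted p under 0.05 (median 0.22), and among 15 other basement membrane genes 4 (median 0.40). Some of these matrix genes were scarce and uneven within GF: the laminin chain gene Lama2 was at 8.06 ± 11.5 CPM in GF and 0.483 ± 0.32 CPM in SPF, and the basement membrane linker Nid1 at 7.99 ± 10.6 and 0.889 ± 0.467 CPM. Col4a2, of collagen IV, was at 23.7 ± 27.0 CPM in GF and 3.46 ± 2.47 CPM in SPF. Lama5, the laminin chain of most epithelial basement membranes, was at 346 ± 72.6 CPM in GF and 277 ± 29.2 CPM in SPF (0.32 ± 0.13, adjusted p = 0.209 by edgeR). Agrn, a heparan sulfate proteoglycan, was at 461 ± 89.5 CPM in GF and 349 ± 51.5 CPM in SPF (0.40 ± 0.14, adjusted p = 0.142). Among 8 tested tetraspanins 2 had an unadjusted p under 0.05 (median −0.16). Cd81 was at 67.4 ± 10.2 CPM in GF and 81.8 ± 4.42 CPM in SPF, not called. Cd9, a tetraspanin that like CD151 associates with integrins, was at 533 ± 74.3 CPM in GF and 617 ± 17.2 CPM in SPF (−0.21 ± 0.10, adjusted p = 0.270 by edgeR). Of 10 basal epithelial markers 1 fell, Cdh3, which encodes P-cadherin of basal cell junctions, at 106 ± 26.8 CPM in GF and 187 ± 17.3 CPM in SPF (−0.82 ± 0.16, adjusted p = 0.0235 by edgeR), and 0 rose. The summed basal marker level ran from 22085 to 25397 CPM in GF libraries and from 25986 to 28634 CPM in SPF libraries, ranges that did not overlap and lay the other way round from the hemidesmosome genes. Abundant keratins such as Krt5 and Krt14, not called, weigh most in this sum, as Dst does in the hemidesmosome gap. Of the 10 markers, 8 had a log2 fold change below 0 and 2 above (median −0.21). Krt14 was at 8256 ± 591 CPM in GF and 9943 ± 1203 CPM in SPF, and Pitx1, an oral transcription factor, at 327 ± 33.4 and 409 ± 25.8 CPM, neither of them called by edgeR; DESeq2 and limma voom called Pitx1 lower. DESeq2 also called the growth factor receptor gene Egfr higher, at 323 ± 18.7 CPM in GF and 275 ± 9.21 CPM in SPF. The part of basal cell number in these levels was not tested.

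**Figure D4:**
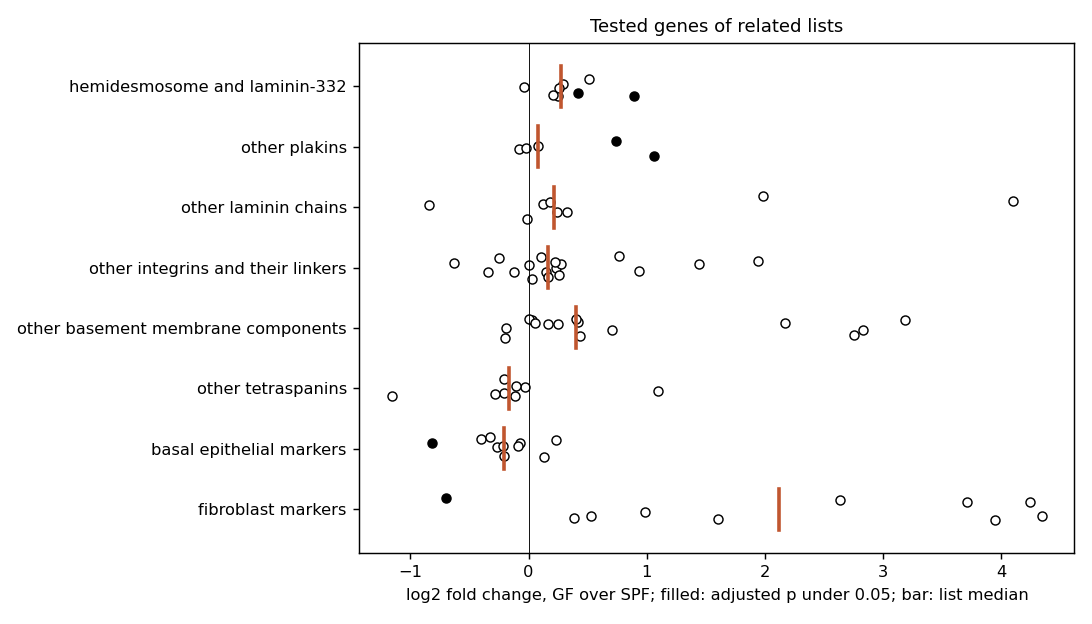
Log2 fold change (GF over SPF, horizontal axis) of every tested gene in the hemidesmosome and laminin-332 set and in 7 related lists; filled points have an adjusted p under 0.05 and coloured bars are list medians. The hemidesmosome median is 0.27, the basal marker median −0.21 and the fibroblast marker median 2.12. A fibroblast marker that is scarce in SPF can pass the filter on low counts through GF alone.

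Transcripts of stromal cells were scarce and reached their highest summed levels in GF 3, and the groups' sums overlapped. The summed level of 12 fibroblast markers ran from 126 to 788 CPM in GF libraries and from 103 to 133 CPM in SPF libraries, and GF 3 held the highest. Of 10 tested, 9 had a log2 fold change above 0, 0 were called higher by edgeR or limma voom and Fn1 by DESeq2, and Thy1 was called lower by all 3 tools. Col1a1 was at 5.59, 9.63, 82.1 and 8.08 CPM in GF 1 to 4, against 0.204, 0.479, 4.28 and 0.51 CPM in SPF libraries. The 8 endothelial markers summed to between 10.8 and 106 CPM in GF and between 4.73 and 12.0 CPM in SPF, with Emcn, a vessel sialomucin, called higher by edgeR against 1 count in the 4 SPF libraries together. All 6 endothelial markers that edgeR tested had a log2 fold change above 0 and an unadjusted p under 0.05 (median 2.75), and DESeq2 called 4 higher, Emcn, Kdr, Tek and Vwf. A marker near 0 in SPF, such as Emcn, passes edgeR's filter on low counts only through its GF counts. The direction of scarce fibroblast and endothelial markers was thus partly set by that filter, and their medians with it. Muscle markers summed to at most 26.3 CPM in GF and 7.63 CPM in SPF, and immune cell markers to at most 15.4 and 8.32 CPM. Of the markers in the table, 0 were at 0 counts in every library. Without GF 3 the log2 fold change was 0.90 for Dst and 0.47 for Lama3, and both were called. With the fibroblast marker score as a covariate Dst was at 0.95 ± 0.15 (adjusted p = 0.0112 by edgeR) and Lama3 at 0.50 ± 0.12 (adjusted p = 0.0951).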

How the data were processed

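The authors deposited 1 table with, per the file headers, raw counts per gene for 8 libraries, 4 GF and 4 SPF. The submitters' processing notes name the build GRCm38 and, without their roles, TopHat2 2.1.1, HTSeq 0.6.0, DESeq2 1.22.2, cutadapt 1.18 and bcl2fastq 2.18.0.12. Libraries came from a stranded total RNA kit with removal of ribosomal RNA, per the labels' protocols. Whether the counting used strand is not stated there. Gm26788 shares 1037 exon bp with Dst on the opposite strand and had at most 246 counts, and Parp10 shares 205 bp with Plec and had at most 620. The deposited normalized signal was counts divided by DESeq2 size factors. The deposited log2 fold changes, p-values and Wald score are the authors' own, for SPF over GF.

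The counts were tested with edgeR 4.0.16 in R 4.3.3: filterByExpr (minimum count 10, minimum total 15), TMM scaling, glmQLFit (robust) and glmQLFTest on a design of the 2 groups. Each SE is the log2 fold change divided by the square root of F. DESeq2 1.42.0 and limma 3.58.1 were alternatives. Exon unions came from GENCODE M21, in which 22876 identifiers were found and 99.03% of the table's genes had the same start and end. Ratios used counts plus 0.5, and the fibroblast score (mean over its markers) and the correlations used log2 of CPM plus 1. The edgeR step was tested on simulated data. Intervals cover the spread between animals only.

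The 8 genes and the lists were chosen with earlier results of these data known. The exon length offsets (lowess, span 0.3) and the 6-library fit without block were chosen after seeing the data. Genes outside the set were named by rule: the 4 with the smallest p in a list and the 5 closest in pattern. Krt13, Evpl, Itga9 and Tek lie outside that rule and were named after their values were seen; not all genes under the rule are printed.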

Additional observations from a re-analysis of the deposited data

Results flagged for a closer look

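Lamb3 in GF 2, at 511 CPM, stood apart from GF 1, 3 and 4: the gap to the next library was 0.835 of the range of the group, above Dixon's 95% critical value for 4 samples. It was the single such value among the 16 groups tested, and chance flags about 1 in 20. Without GF 2 the log2 fold change of Lamb3 was 0.08 ± 0.11 and was not called.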

How the results depend on the processing

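Dst was called with a log2 fold change above 0 in all 18 alternative fits, from 0.59 with the length offsets to 0.95 with the fibroblast score, and Lama3 was above 0 in 18 and called in 11. The number of called genes among the 8 was 1 with the fibroblast score, with the exon length offsets, with the replicate block and without the block on the same 6 libraries, and 1 to 2 with a library left out; DESeq2 called 3. Over all genes 1352 were called by DESeq2, 1023 by limma voom, 74 with the fibroblast score, 315 with the replicate block, 350 without the block on the same 6 libraries, and 284 to 688 with a library left out. The block used the 6 libraries with shared numbers, whose deviations correlated at 0.19, −0.08 and −0.07. The labels do not say whether the numbers pair the animals, and these correlations cannot decide it. On those 6 libraries, which leave out GF 2 and SPF 5, the log2 fold changes of genes not called were lower too. With the block they were 0.28 for Plec, 0.16 for Itga6, 0.12 for Col17a1, −0.03 for Itgb4 and −0.01 for Lamb3. Without the block they were nearly the same, at 0.27, 0.16, 0.12, −0.03 and −0.01 in that order. GF 2 was the highest library for 6 of the 8 genes and SPF 5 the lowest for 7. Scaling by DESeq2 size factors or upper quartile left the 2 calls in place. No alternative brought a ratio test under an adjusted p of 0.05: the lowest were 0.143 for partner ratios and 0.0571 for ratios to Krt5. For the ratios the replicate block was a sign-flip test on 3 pairs, whose smallest p is 0.25, so it could not pass. In the other alternatives 1 ratio alone at the smallest permutation p, 0.0286, could not pass after adjustment. These outcomes therefore do not show that the ratios were stable. With 4 libraries a group, the ratio tests have little room, and depth does not limit genes with at least 864 counts in every library. The causes of these changes were not tested.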

Other observations

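Among 14 suprabasal epithelial markers 1 fell, Ivl, which encodes the cornified envelope protein involucrin, at 2.98 ± 1.36 CPM in GF and 7.74 ± 1.68 CPM in SPF libraries (−1.37 ± 0.35, adjusted p = 0.0451 by edgeR), and 0 rose. DESeq2 also called Krt16 and Krtdap lower in GF. Of 4 tested nerve and melanocyte markers Mbp rose to 70.8 ± 10.2 CPM in GF, against 52.1 ± 3.45 CPM in SPF (0.44 ± 0.11, adjusted p = 0.0459 by edgeR). DESeq2 called Mbp too, and limma voom did not.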
